A study of Mus musculus with 4 samples.

Results

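Double-keratin cells were mammary cells whose RNA held luminal and basal keratin messages in the same barcode. A barcode was counted as double-keratin when it had at least 2 UMIs of Krt8 and Krt18 together, at least 1 UMI of Krt5 and Krt14 together and none of Ptprc, the leukocyte gene that encodes CD45. UMIs are unique molecular tags, each counted as 1 captured RNA molecule. The rule was applied to the 10374 barcodes in which 500 genes or more were detected and mitochondrial UMIs made up no more than 10%, and it picked 252 of them. They were set against luminal-keratin-only cells, 2228 barcodes with the same luminal keratin and Ptprc limits and no UMI of Krt5 or Krt14. The cells were chosen by the UMI counts of these 5 genes, so the values of the 5 genes are given as a description and were not tested.

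The mammary duct has 2 epithelial layers. Luminal cells line the lumen and build their filaments from keratins 8 and 18. Basal, or myoepithelial, cells sit on the basement membrane, build filaments from keratins 5 and 14, and carry smooth muscle proteins with which they squeeze milk out. Luminal cells are further divided into hormone-sensing cells and the progenitor or alveolar cells that make milk. Cells that carry keratins of both layers are described in the fetal gland and in BRCA1-type breast tumours.

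The cells came from female mice of mixed background with the alleles Trp53L/L, Brca1L/L and R26Y (a YFP reporter). All groups had received Ad-K8-Cre into the milk ducts, an adenovirus that expresses Cre from the keratin 8 promoter and so targets luminal cells; the labels call the resulting cells Trp53/Brca1-null. The 2 weeks library held sorted YFP+ cells, the 5 months library sorted YFP+ cells with CD45+ leukocytes, both times counted from injection. For the 2 tumour libraries the tumour mass was sorted for live cells, which exclude the dye DAPI. Each is 1 droplet library, so only the tumours form a group with replicates (n = 2), and the number of mice per library is not stated. P-values therefore measure the spread between these libraries, which may be technical.

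Double-keratin cells numbered 56 of 1301 barcodes at 2 weeks, 30 of 4668 at 5 months, 136 of 2640 in tumour 1 and 30 of 1765 in tumour 2. Their median depth was 6129, 4527, 13567 and 9764.5 UMIs in that order of libraries. Each was paired with the luminal-keratin-only cell of the same library nearest in depth, which left 3 of the 5 months cells unpaired, and the paired luminal-keratin-only cells had medians of 6136.5, 4137, 13553 and 9765 UMIs. Libraries shared 2 to 16 barcodes with each other, none of them double-keratin in both. Trp53, the gene of the p53 tumour suppressor, had 20 and 12 UMIs (9.10 and 34.9 CPM, that is UMIs scaled to a common total with edgeR's TMM factors) in double-keratin cells of tumours 1 and 2, against 29 and 12 UMIs (80.5 and 60.5 CPM) at 2 weeks and 5 months, and did not pass the test (edgeR adjusted p = 0.325). Brca1 had 3 and 0 UMIs in the tumours, against 1 and 1 UMI in the premalignant libraries. The 3' tags were not located relative to the deleted exons, so these counts do not check the deletion.

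The basal keratin that defined the cells was mostly Krt14 (keratin 14, GRCm38 chr11:100203162-100207548, minus strand), and in the tumours it was Krt14 alone. Of the 56 cells at 2 weeks, 45 had Krt14 without Krt5, as did 19 of 30 at 5 months and every double-keratin cell of tumour 1 (136) and tumour 2 (30). Krt5, whose product normally pairs with keratin 14 (chr15:101707070-101712898, minus strand), had UMIs in 11 cells each at 2 weeks and at 5 months. It had 0 UMIs in every tumour barcode of the tables, against 57 and 45 UMIs over all barcodes at 2 weeks and 5 months. In the double-keratin cells of tumour 1, 3 counts would be 1.32 CPM. Reads of Krt14, Krt16 and Krt17, neighbouring genes of similar sequence, are hard to tell apart, and the sources used here do not say how such reads were counted.

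The amount of basal keratin differed widely between cells. A single basal keratin UMI defined 23, 10, 36 and 15 cells of the 2 weeks, 5 months, tumour 1 and tumour 2 libraries. At least 5 UMIs were present in 19, 15, 64 and 6 cells, and the highest cells held 28, 25, 64 and 21 UMIs. At the luminal limit, 7, 5, 3 and 0 double-keratin cells had exactly 2 luminal keratin UMIs. Just outside it, 11, 1, 4 and 0 barcodes with a basal keratin UMI had 1 luminal keratin UMI.

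**Figure D1:**
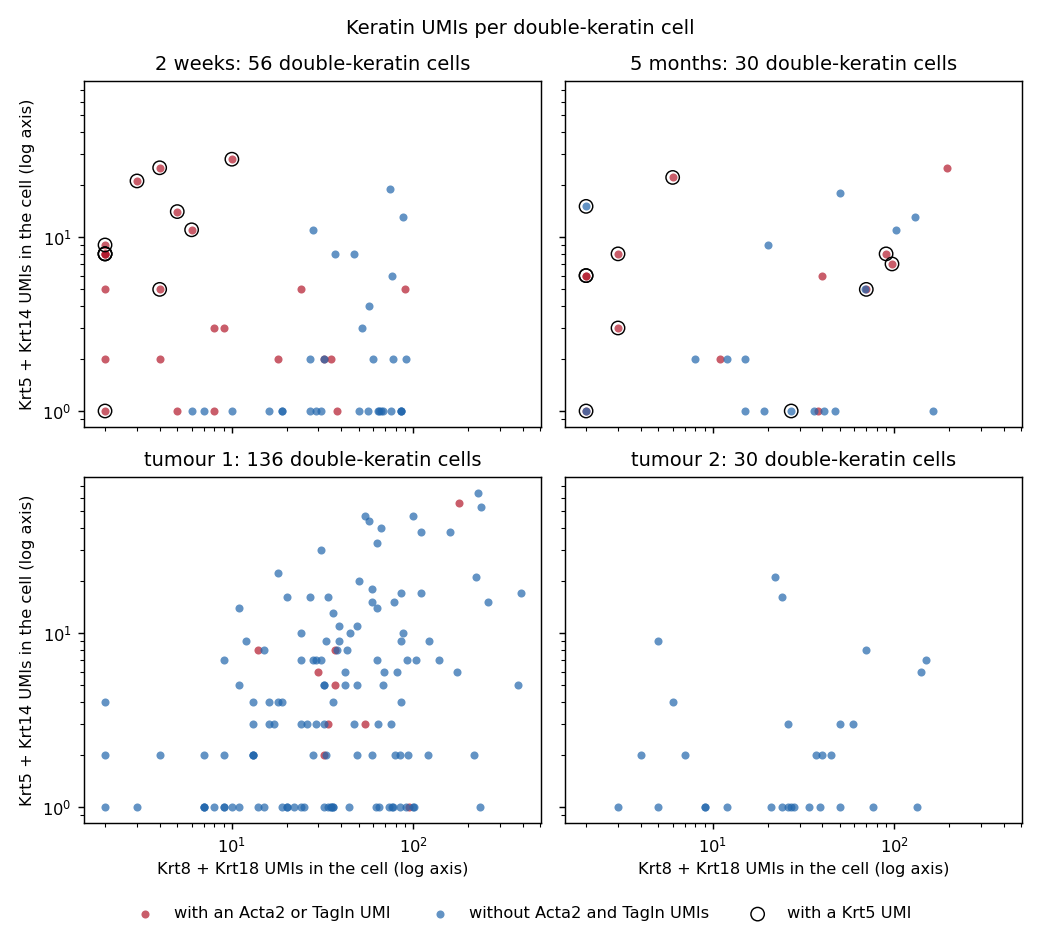
Each point is 1 double-keratin cell, with luminal keratin UMIs (Krt8 + Krt18) on the x axis and basal keratin UMIs (Krt5 + Krt14) on the y axis, both logarithmic, in 4 panels by library. Red cells carried an Acta2 or Tagln UMI and rings mark Krt5. Both lie mainly at the left of the 2 weeks panel but spread from left to right in the 5 months panel, and no tumour cell has a ring.

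Tumour 1 held the highest share of double-keratin cells. Each cell was thinned to 2000 UMIs, shallower cells were left out, and the share of luminal-keratin cells with a basal keratin UMI was taken with its 95% exact binomial interval. At 2 weeks 32 of 972 cells had one, 3.29% (interval 2.26% to 4.62%). The share at 5 months was 4.07% (17 of 418 cells, interval 2.39% to 6.43%). Tumour 1 stood at 17.9% (64 of 358 cells, interval 14.1% to 22.3%) and tumour 2 at 3.44% (12 of 349 cells, interval 1.79% to 5.93%). The interval of tumour 1 lay above the other 3, which overlapped. Unthinned, the shares were 4.86%, 6.68%, 32.1% and 6.61%. Intervals hold counting error only, each library is 1 sample and the sorts differed, so no share was tested.

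Barcodes with Ptprc, which should lack basal keratin, give the background. After thinning, 1 of 1082 carried a basal keratin UMI at 5 months (0.0924%), 5 of 729 in tumour 1 (0.686%) and 1 of 403 in tumour 2 (0.248%), from original medians of 2889.5, 6370 and 4718 UMIs. The luminal-keratin cells of these 3 libraries had original medians of 4799.5, 14582 and 7996 UMIs. Only 3 such barcodes were left at 2 weeks, too few for a background.

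**Figure D2:**
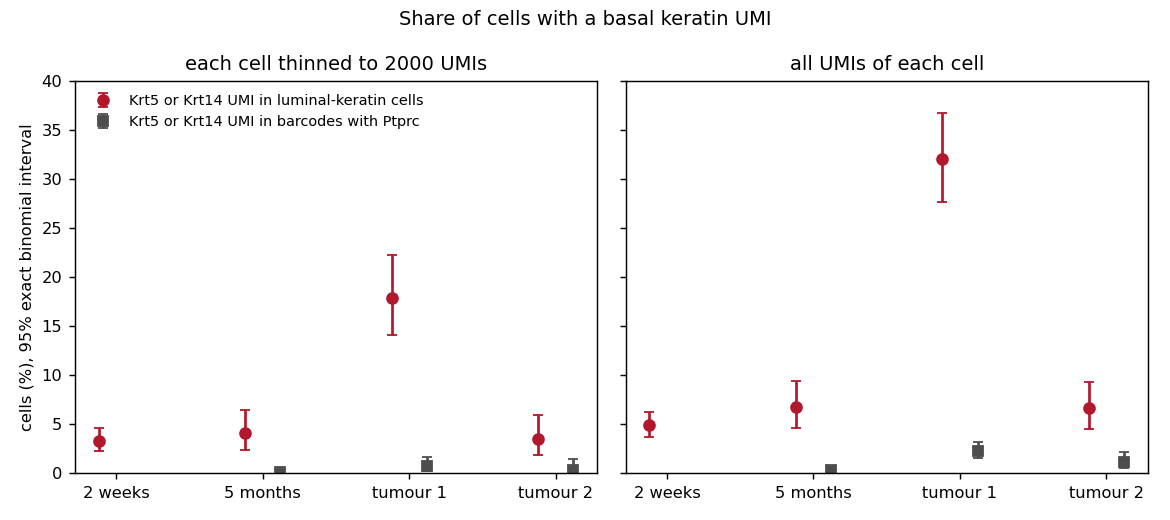
Share of cells with a Krt5 or Krt14 UMI per library, with 95% exact binomial intervals, at 2000 UMIs per cell (left) and at full depth (right). Circles are luminal-keratin cells and squares are barcodes with Ptprc, not drawn at 2 weeks; tumour 1 stands at 17.9% and 32.1%, and the squares at 0.0924% to 2.24%.

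Levels in class comparisons are TMM-scaled CPM of the summed UMIs of paired cells. Krt8 stood at 2549 CPM in double-keratin cells and 3132 CPM in luminal-keratin-only cells at 2 weeks, and at 3433 CPM in double-keratin and 2749 CPM in luminal-keratin-only cells at 5 months. In tumour 1 it stood at 1607 CPM in double-keratin and 1063 CPM in luminal-keratin-only cells, and in tumour 2 at 1719 CPM in double-keratin and 889.9 CPM in luminal-keratin-only cells. Krt18 had 2755, 3668, 2003 and 1653 CPM in double-keratin cells in the order 2 weeks, 5 months, tumour 1 and tumour 2, against 4155, 3855, 1164 and 960.6 CPM in luminal-keratin-only cells. Both keratins were lower in double-keratin cells at 2 weeks and higher in both tumours, and at 5 months Krt8 was higher while the Krt18 levels did not differ beyond counting error (ratio 0.951, 95% interval 0.836 to 1.08). The epithelial adhesion gene Epcam had 1740, 2195, 311 and 1639 CPM in double-keratin cells in the order 2 weeks, 5 months, tumour 1 and tumour 2, against 1388, 2326, 296 and 1379 CPM in luminal-keratin-only cells.

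Across the 4 libraries, Crip1 was the 1 gene of 4069 tested that passed, 0.0246% of genes (edgeR quasi-likelihood test with library as a block, Benjamini-Hochberg adjustment), and 209 genes had an unadjusted p under 0.05. Crip1 encodes a small zinc-binding LIM protein. It stood at 677, 1321, 1745 and 1342 CPM in double-keratin cells of the 2 weeks, 5 months, tumour 1 and tumour 2 libraries. In luminal-keratin-only cells it stood at 309, 602, 624 and 630 CPM. It was more than 2-fold higher in double-keratin cells of all 4 libraries, and the fitted log2 difference was 1.22 (SE 0.13, adjusted p = 0.0368). The highest cell held 44.3% of the Crip1 UMIs of double-keratin cells and 52.7% of those of luminal-keratin-only cells at 5 months. At 2 weeks Crip1 was detected in 41 of 56 paired luminal-keratin-only cells. Double-keratin cells with 1, 2 to 4, and 5 or more basal keratin UMIs had it in 15 of 23, 10 of 14 and 9 of 19 cells. Before TMM scaling these 2 weeks bins stood at 275, 817 and 1288 CPM of Crip1, against 320 CPM in the paired cells. Over the other settings the log2 difference ranged from 0.77 to 1.41 and its adjusted p from 2.93e-11 to 0.999. It was 0.605 with all luminal-keratin-only cells in place of paired ones, 0.228 without the 5 months library, 0.178 without tumour 1 and 0.102 without tumour 2.

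Krt17, a keratin of basal and injured epithelium, was the other gene at least 2-fold higher in double-keratin cells of all 4 libraries, on log2(CPM + 10) ratios. These 2 genes are 0.121% of the 1654 genes with at least 20 UMIs over both classes in every library; 0 were 2-fold lower in all 4. Krt17 met that limit through double-keratin cells, since luminal-keratin-only cells held 1, 0, 2 and 9 UMIs, so its place in the count is fixed by the limit and is no support. Any difference in the same direction in all 4 libraries was found for 117 genes that were higher (7.07%) and 155 that were lower (9.37%). Krt17 had 438, 357, 13.9 and 366 CPM in double-keratin cells of the 2 weeks, 5 months, tumour 1 and tumour 2 libraries, against 2.89, 0, 0.935 and 25.4 CPM in luminal-keratin-only cells. It was detected in 22 of 56, 4 of 27, 14 of 136 and 12 of 30 paired double-keratin cells. One cell held 74.2% of the Krt17 UMIs of the double-keratin cells of tumour 2, without which they stood at 98.5 CPM before TMM scaling. Krt17 was not among the genes tested across libraries, since its counts did not pass the low-count filter.

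Smooth muscle genes stood higher in double-keratin cells at 2 weeks and 5 months. Of the 12 contractile genes listed, 6 had at least 20 UMIs over both classes at 2 weeks, 5 at 5 months, 6 in tumour 1 and 1 in tumour 2. All that met the limit were at least 2-fold higher in double-keratin cells at 2 weeks and 5 months, but 4 of them in each library had 0 UMIs in luminal-keratin-only cells. Those 4 met the limit through double-keratin cells alone and had to come out higher, so the counts are not read against the share of all genes, which was 7.1% of 4197 at 2 weeks and 5.02% of 1772 at 5 months. In tumour 1, 0 of 6 were higher and 2 were lower, beside 0.513% of 9363 genes higher and 1.09% lower, and in tumour 2 the single one measured was neither.

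Acta2 encodes smooth muscle actin. Its counts in double-keratin cells were 443 UMIs (1219 CPM) at 2 weeks and 134 UMIs (1018 CPM) at 5 months, and in luminal-keratin-only cells 0 UMIs in both libraries. With 3 counts per library as the floor, it was at least 141-fold higher at 2 weeks and at least 41.7-fold higher at 5 months. In tumour 1 it had 10 UMIs in double-keratin and 107 in luminal-keratin-only cells. Only 11 of the 136 luminal-keratin-only cells carried it there. The highest of these held 44, 26 and 19 of the 107 UMIs, with 0, 1 and 1 Epcam UMIs. In tumour 2 Acta2 had 0 UMIs in double-keratin and 1 in luminal-keratin-only cells. Tagln, the smooth muscle protein transgelin, was at least 24.4-fold and 9.34-fold higher at 2 weeks and 5 months on the same floor, and Myl9, a myosin light chain, at least 18.4-fold and 12.8-fold. Cald1, the actin-binding caldesmon, had 418 CPM in double-keratin and 20.2 CPM in luminal-keratin-only cells at 2 weeks. In tumour 1 it had 301 CPM in double-keratin and 295 CPM in luminal-keratin-only cells.

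Genes of basal keratin and adhesion followed in part. Of 10 measured members of that list at 2 weeks, 7 were at least 2-fold higher in double-keratin cells, beside 7.1% of all genes. At 5 months it was 4 of 6 (beside 5.02%), in tumour 1 2 of 13 (0.513%) and in tumour 2 4 of 11 (2.48% of 4152 genes). In tumour 1, 1 of the 13 was at least 2-fold lower, beside 1.09% of all genes. At 2 weeks 2 of the 10 and at 5 months 1 of the 6 had 0 UMIs in luminal-keratin-only cells and so met the UMI limit through double-keratin cells alone. Sfn, the epithelial 14-3-3 protein sigma, had 988, 2020, 329 and 954 CPM in double-keratin cells of the 2 weeks, 5 months, tumour 1 and tumour 2 libraries, against 280.5, 968, 258 and 610.2 CPM in luminal-keratin-only cells (log2 difference 0.95, SE 0.23, adjusted p = 0.555). Lamb3, a laminin chain of the basement membrane, had 38.5, 53.2, 56.4 and 59.96 CPM in double-keratin and 5.78, 48.8, 22.9 and 8.48 CPM in luminal-keratin-only cells. Trp63, the transcription factor that marks basal cells, had 7 of 56 double-keratin cells with a UMI at 2 weeks, 1 of 27 at 5 months, 0 of 136 in tumour 1 and 1 of 30 in tumour 2.

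Milk and progenitor genes were higher in double-keratin cells at 2 weeks and more often lower than higher in the later libraries. At 2 weeks, 9 of 12 measured members had a ratio of 2 or more, beside 7.1% of all genes, and 0 were as far below. At 5 months 7 of 17 were at least 2-fold lower and 1 higher, in tumour 1 6 of 17 lower and 1 higher, and in tumour 2 4 of 11 lower and 1 higher; among all genes 5.64%, 1.09% and 4.77% were lower in these 3 libraries. Wfdc18, a secreted protein of alveolar cells, had 3405 CPM in double-keratin and 246 CPM in luminal-keratin-only cells at 2 weeks, a 13.9-fold difference. In tumour 1 it had 3252 CPM in double-keratin and 5622 CPM in luminal-keratin-only cells. The casein Csn3 had 1156, 9189, 529 and 965 CPM in double-keratin cells in the order 2 weeks, 5 months, tumour 1 and tumour 2, against 526, 14510, 1620 and 2766 CPM in luminal-keratin-only cells. Aldh1a3, an aldehyde dehydrogenase of luminal progenitors, had 300.0 CPM in double-keratin and 46.3 CPM in luminal-keratin-only cells at 2 weeks.

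Hormone-sensing genes were lower in paired premalignant double-keratin cells. At 2 weeks 7 of 10 measured genes were lower by 2-fold or more, beside 4.05% of all genes, and at 5 months 3 of 4, beside 5.64%. None of 6 in tumour 1 and none of 2 in tumour 2 was lower, beside 1.09% and 4.77% of all genes. With so few genes measured, these counts cannot be told from the share of all genes. Areg, the growth factor amphiregulin, had 534 CPM in double-keratin and 1397 CPM in luminal-keratin-only cells at 2 weeks. In tumour 2 it had 459.7 CPM in double-keratin and 353 CPM in luminal-keratin-only cells. Prlr, the prolactin receptor, had 116 CPM in double-keratin and 532 CPM in luminal-keratin-only cells at 2 weeks. Paired cells at 5 months had 98.7 CPM in the double-keratin and 333.5 CPM in the luminal-keratin-only class. This difference leaves out the 3 unpaired double-keratin cells of that library. With them kept and before TMM scaling, Prlr had 384 CPM in the 13 double-keratin cells with an Acta2 or Tagln UMI. It had 48.9 CPM in the 17 without and 309 CPM in paired luminal-keratin-only cells. Cited1, a transcriptional co-regulator of hormone-sensing cells, had 314 CPM in double-keratin and 1596 CPM in luminal-keratin-only cells at 2 weeks.

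**Figure D3:**
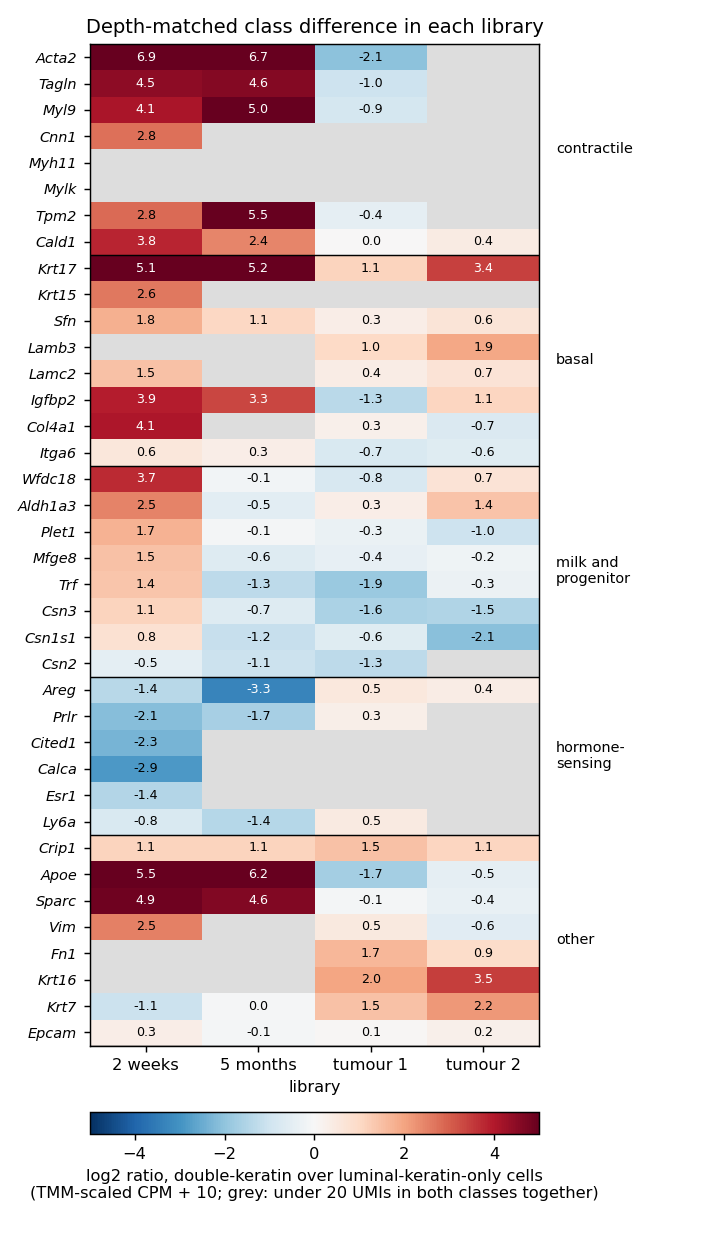
Log2 ratio of double-keratin over depth-matched luminal-keratin-only cells for 38 genes, with 1 column per library (TMM-scaled CPM plus 10, 1 sum against 1); grey cells had under 20 UMIs. The contractile block is red in the 2 premalignant columns and mostly grey, pale or blue in the tumour columns, while Crip1 stands between 1.08 and 1.47 in all 4.

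The sums over double-keratin cells pool cells that differed, and a sum cannot tell fewer expressing cells from less RNA per cell. At 2 weeks 24 of 56 double-keratin cells (42.9%) carried a UMI of Acta2 or Tagln, and at 5 months 13 of 30 (43.3%). In tumour 1 it was 9 of 136 (6.62%) and in tumour 2 0 of 30, although tumour cells were sequenced more deeply. These 2 kinds, and the cut at 3 UMIs used next, were chosen after their values were seen and are described without a test, in CPM of the summed UMIs before TMM scaling.

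At 2 weeks the 24 cells with Acta2 or Tagln were themselves mixed at the cut. In 5 of them, with 1 or 2 UMIs of Acta2 and Tagln together, lay all 128 Wfdc18 UMIs of the 24 cells, 83 of the 163 Krt8 and 117 of the 154 Krt18 UMIs, and 0 UMIs of Krt17 and Krt5. The other 19 cells, with 3 or more, had 773 CPM of Krt8, 1372 CPM of Krt14, 184 CPM of Krt5, 1421 CPM of Krt17, 4252 CPM of Acta2 and 0 UMIs of Wfdc18, and a median of 4 luminal keratin UMIs. The 26 basal-keratin-only cells, which carried basal keratin and under 2 luminal keratin UMIs, had 116 CPM of Krt8, 2172 CPM of Krt14, 437 CPM of Krt5, 1645 CPM of Krt17, 4587 CPM of Acta2 and 12.9 CPM of Wfdc18. Of these genes only Krt17 and Wfdc18 were used neither by the rule nor by the split. The basal-keratin-only cells had a median depth of 2595 UMIs, against 5450 UMIs in the 24 cells. The limit of 2 luminal keratin UMIs was therefore harder to reach in them.

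The 32 cells without Acta2 and Tagln had 3799 CPM of Krt8, against 3240 CPM in luminal-keratin-only cells, with 503 CPM of Krt14, 0 UMIs of Krt5 and a median of 54 luminal keratin UMIs. Wfdc18 stood at 5522 CPM in them and 254 CPM in luminal-keratin-only cells. Plet1, a surface protein of luminal progenitors, stood at 1623 CPM in them and 302 CPM in luminal-keratin-only cells. Hormone-sensing Cited1 stood at 513 CPM in them and 1651 CPM in luminal-keratin-only cells. Crip1 had 1086 CPM in cells without the contractile genes, 210 CPM in those with them and 320 CPM in luminal-keratin-only cells.

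At 5 months the 17 cells without Acta2 and Tagln carried milk genes at the level of luminal-keratin-only cells. Csn3 had 13350 CPM in them and 13460 CPM in luminal-keratin-only cells, and Wfdc18 had 17560 CPM in them and 13420 CPM in luminal-keratin-only cells. The 13 cells with Acta2 or Tagln had 2983 CPM of Csn3 and 5535 CPM of Wfdc18, and 1 of them held 338 of their 692 Wfdc18 UMIs. At the cut of 3 UMIs, 12 of the 13 remained, and 9 of these 12 carried Wfdc18, at 4621 CPM over the 12. The 3 unpaired cells, with 28917, 24761 and 19073 UMIs, were the deepest double-keratin cells of the library and all among the 13. They held 78, 84 and 92 of the 373 Csn3 UMIs of the 13 cells. Scrublet, which scores barcodes for resemblance to simulated doublets, gave median scores of 0.0528 and 0.0768 to the cells with contractile genes at 2 weeks and 5 months and 0.0507 and 0.0536 to those without. The part of doublets in these values was not tested beyond leaving out the highest scores, which removed 1 double-keratin cell at 2 weeks, 1 at 5 months, 2 in tumour 1 and 0 in tumour 2.

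**Figure D4:**
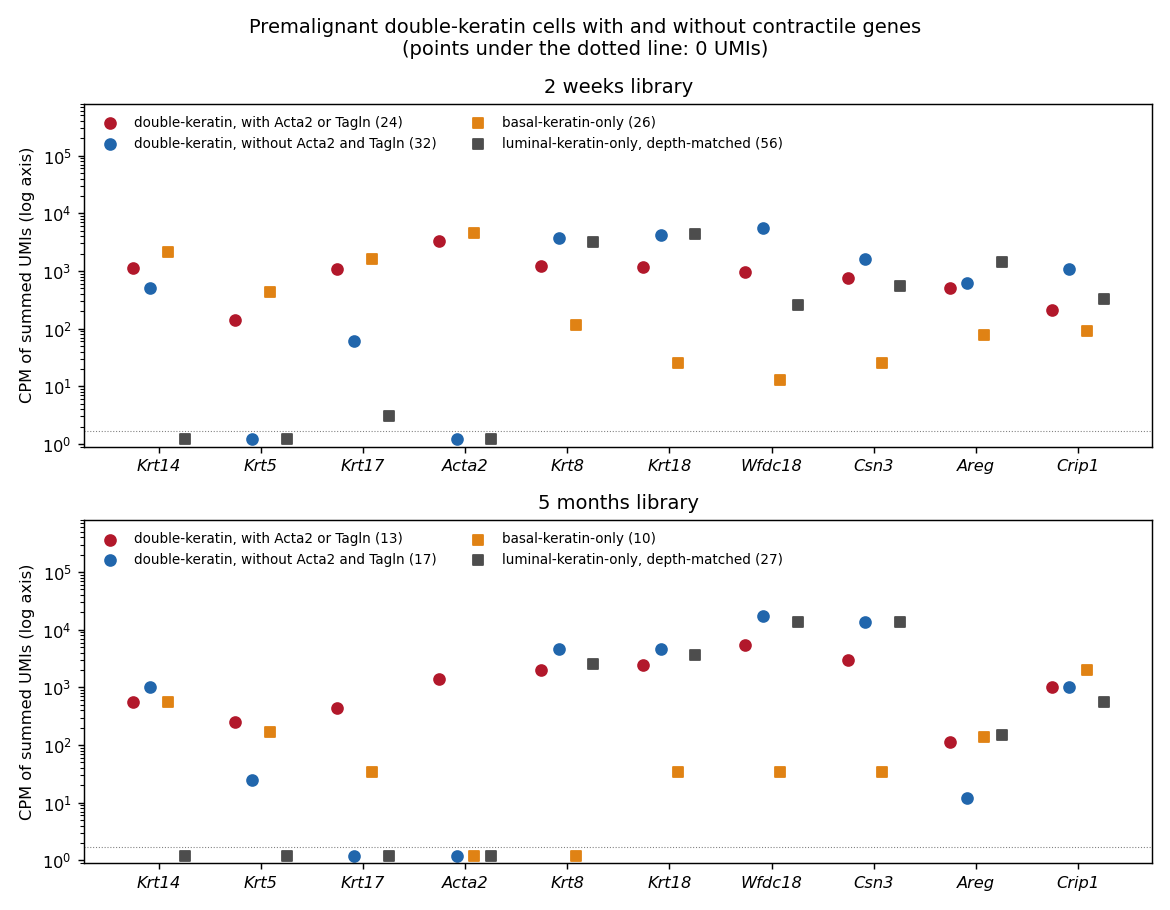
CPM of summed UMIs (log axis) of 10 genes in double-keratin cells with and without Acta2 or Tagln, in basal-keratin-only and in paired luminal-keratin-only cells, at 2 weeks (top) and 5 months (bottom); points below the dotted line had 0 UMIs and cell numbers stand in the legend. At 2 weeks Wfdc18 stands at 5522 CPM in double-keratin cells without contractile genes, above the other 3 kinds.

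In tumour 1, the genes highest over luminal-keratin-only cells included Krt16, a keratin of squamous and injured epithelium, and Ly6d, a surface protein of keratinocytes and luminal progenitors. Ly6d had 570 CPM in double-keratin and 54.7 CPM in luminal-keratin-only cells (10.4-fold), with a UMI in 65 and 31 of 136 cells. In tumour 2 the order was the reverse, with 11.4 CPM in double-keratin and 53.7 CPM in luminal-keratin-only cells. Krt16 had 60.5 CPM in double-keratin and 7.95 CPM in luminal-keratin-only cells of tumour 1, with a UMI in 29 and 5 cells. In tumour 2 it had 163 CPM in double-keratin and 5.65 CPM in luminal-keratin-only cells, but 1 cell held 82.5% of the Krt16 UMIs. The other genes named highest in tumour 1 were Jchain, the joining chain of antibodies, of whose UMIs 1 cell held 95.2%, the lipase Pla2g7 (136 CPM in double-keratin and 28.5 CPM in luminal-keratin-only cells) and Hp, haptoglobin (258 CPM in double-keratin and 66.4 CPM in luminal-keratin-only cells). The simple epithelial keratin Krt7 was 2.84-fold and 4.95-fold higher in double-keratin cells of tumours 1 and 2.

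The collagens Col1a1, Col1a2 and Col3a1 were the lowest genes in tumour 1, with Acta2 and the casein Csn1s2a. Col1a1 had 10.3 CPM in double-keratin and 210 CPM in luminal-keratin-only cells, but 1 luminal-keratin-only cell held 76.4% of its UMIs there, and 1 held 98.2% of those of Csn1s2a. For Acta2, 1 luminal-keratin-only cell held 44 of the 107 UMIs. The fibroblast marker list summed, before TMM scaling, to 237 CPM in double-keratin and 238 CPM in luminal-keratin-only cells of tumour 1, and 0 and 2 of its 10 genes were at 0. In tumour 2 the lowest genes, Pvt1, Cytl1, Mgp, Fst and Dcpp1, had 59.3% to 98.0% of their luminal-keratin-only UMIs in 1 cell. The highest after the 2 keratins, Spp1, Ptgs2 and Csf3, had 37.3%, 78.6% and 60.8% of their double-keratin UMIs in 1 cell.

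Within tumour 1, where every bin held at least 36 cells, several of these genes followed the number of basal keratin UMIs. In paired cells with 0 and in double-keratin cells with 1, 2 to 4, and 5 or more basal keratin UMIs, Crip1 stood at 590, 1172, 1550 and 2040 CPM of the summed UMIs. Ly6d stood at 51.7, 309, 328 and 785 CPM in these bins. Csn3 stood at 1532, 1072, 861 and 103 CPM, but its order rests on 1 cell. That cell held 320 of the 576 Csn3 UMIs of the bin with 1 basal keratin UMI. Apoe, the lipid carrier apolipoprotein E, stood at 1909, 1040, 664 and 389 CPM. Other genes did not follow the bins in order, such as Krt16 (7.51, 31.6, 21.3 and 90.4 CPM) and Wfdc18 (5314, 1777, 3588 and 3651 CPM). The bins are cut on genes of the rule, and median depth was 13553, 13851.5, 12450 and 14573.5 UMIs, so these values are a description.

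The class difference itself was then compared between tumours and premalignant libraries, which also differed in how their cells were sorted. The class by stage term passed for 2 of 4069 genes (0.0492%), both lower in tumours, and 327 genes had an unadjusted p under 0.05. Apoe had 622 and 163 CPM in double-keratin cells of tumours 1 and 2, against 2020 and 229 CPM in luminal-keratin-only cells. At 2 weeks and 5 months it had 1373 and 1306 CPM in double-keratin cells, against 20.2 and 8.13 CPM in luminal-keratin-only cells (log2 term -7.54, SE 0.53, edgeR adjusted p = 0.000555). Sparc, a matrix protein of basal and stromal cells, had 318 and 97.1 CPM in double-keratin and 341 and 127 CPM in luminal-keratin-only cells of the tumours. In the premalignant libraries it had 281 and 235 CPM in double-keratin cells and 0 UMIs in luminal-keratin-only cells (edgeR adjusted p = 0.00418). At 2 weeks 491 of the 499 Apoe UMIs and 101 of the 102 Sparc UMIs of double-keratin cells were in those with Acta2 or Tagln. Ptprc barcodes of tumours 1 and 2 held 23430 and 10990 CPM of Apoe, and the part of leukocyte RNA in the tumour values was not tested. The number of genes that passed was 25 without 2 weeks, 172 without 5 months, 5 without tumour 1 and 35 without tumour 2.

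The contractile list kept 2 tested members in this term, Tpm2 and Cald1, and the hormone-sensing list 5, none of which passed. Of the 20 milk and progenitor genes 14 were tested, and these all had a negative term (median -1.04, against 0.01 over all genes), and none passed. Among all 4069 genes 2069 had a term above 0.

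Double-keratin cells of tumours were last compared with those of the premalignant libraries. Tumours were sorted for live cells and the premalignant libraries for YFP+ cells, so stage cannot be told apart from the sort. All double-keratin cells were used without depth pairing, at medians of 13567 and 9764.5 UMIs in tumours 1 and 2. At 2 weeks and 5 months the medians were 6129 and 4527 UMIs, so 1 basal keratin UMI was a looser limit in tumours. The premalignant spread includes the difference of times and sorts. Of 4285 genes tested, 38 passed (0.887%, edgeR adjusted p under 0.05), 13 higher (0.303%) and 25 lower (0.583%) in tumours. Of the 12 contractile genes, 8 had counts high enough to be tested, of which 6 were lower and 0 higher. These 6 entered the test through the premalignant libraries, where they are high, and a contractile gene low in both groups could not be tested, so the count is tilted to lower and each gene is read by its own values. Acta2 had 4.55 and 0 CPM in tumours 1 and 2, against 1230 and 898 CPM at 2 weeks and 5 months, with no overlap (adjusted p = 0.00622). Tagln had 1.37 and 0 CPM in tumours, against 214 and 242 CPM at 2 weeks and 5 months (adjusted p = 0.00622). Myh11, smooth muscle myosin, had 0 UMIs in both tumours, against 27.8 and 111 CPM at 2 weeks and 5 months, so that it was at least 58.8-fold lower on the floor of 3 counts over the group. The other 3 were Myl9, Cnn1 and Mylk.

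Cdkn2a, which encodes the tumour suppressors p16 and p19ARF, was higher in tumours. It had 667 and 532 CPM in double-keratin cells of tumours 1 and 2, against 0 and 5.05 CPM at 2 weeks and 5 months (log2 fold change 8.22, SE 0.90, adjusted p = 0.00622), and a UMI in 123 of 136 and 28 of 30 tumour cells, against 0 of 56 and 1 of 30. Hmga2, a chromatin protein of embryonic and cancer cells, had 100.1 and 90.2 CPM in tumours, against 0 UMIs in both premalignant libraries, at least 17.7-fold higher (adjusted p = 0.0277). Hotairm1, a non-coding RNA of the HOXA cluster, and Gng11, a G protein subunit, likewise had 0 premalignant UMIs, with Hotairm1 at 47.8 and 81.5 CPM in tumours 1 and 2 and Gng11 at 126.5 and 52.4 CPM, although 1 cell held 61.1% of the Gng11 UMIs of tumour 2. Of the 15 mesenchymal genes 5 were tested, of which 2 were higher, Fn1 and S100a4, beside 0.303% of all genes. Fn1 entered the test through the tumours, where it is high, so the count is tilted to higher and is not read against that share. Fn1, the matrix protein fibronectin, had 663 and 154 CPM in tumours, against 2.78 and 0 CPM at 2 weeks and 5 months (adjusted p = 0.0265).

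S100a8, S100a9 and Tyrobp were also higher in tumours, at 171 and 1138 CPM, 101 and 672 CPM, and 121 and 169 CPM. In the 2 weeks and 5 months cells they stood at 0 and 10.1 CPM, 0 and 5.05 CPM, and 0 and 10.1 CPM (adjusted p = 0.0419 each). In tumour 2, 1 cell held 71.4% of the S100a8 and 68.8% of the S100a9 UMIs. Leukocytes express all 3, and Ptprc barcodes of tumours 1 and 2 held 700 and 10400 CPM of S100a8 and 3204 and 2201 CPM of Tyrobp. Before TMM scaling, the leukocyte marker list summed to 779 and 545 CPM in paired double-keratin cells of tumours 1 and 2, against 1209 and 328 CPM at 2 weeks and 5 months. Of its 10 genes 1 was at 0 in each tumour and 7 and 1 in the premalignant libraries. At 2 weeks Cd74, an antigen-presentation gene that epithelium can express, made most of that sum. It stood at 1087 CPM after division by the TMM factor of 1.087. In luminal-keratin-only cells the list summed, again before TMM scaling, to 1891 and 736 CPM in tumours and 470 and 1056 CPM at 2 weeks and 5 months. No UMI of 8 leukocyte genes was found in 6 of 136 and 6 of 30 tumour double-keratin cells, against 54 of 56 and 19 of 30 premalignant ones. With those cells alone 2 genes of 1089 passed; Cdkn2a was among them (log2 7.13, adjusted p = 0.0328) and Acta2 was not (log2 -10.2, adjusted p = 0.0664). The part of leukocyte RNA in the other results was not tested.

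Lower in tumours beside the contractile genes were the R-spondin Rspo1, a Wnt signalling enhancer, and the lipoxygenase Alox12e. Rspo1 had 0 UMIs in both tumours, against 117 and 80.7 CPM at 2 weeks and 5 months (at least 83.6-fold lower). Alox12e had 0.455 and 0 CPM in tumours, against 117 and 80.7 CPM at 2 weeks and 5 months, where 1 cell held 12 of its 16 UMIs at 5 months. The calcitonin gene Calca, Tmem56 and Dkkl1 had 0 UMIs in both tumours and were at least 79.9-fold, 57.1-fold and 26.7-fold lower, with 58.3% and 72.7% of the Calca UMIs at 2 weeks and 5 months in 1 cell each. Csn1s2a, an alpha-S2 casein, had 0.910 and 0 CPM in tumours, against 130.5 and 11090 CPM at 2 weeks and 5 months, and 1 cell held 68.1% of its UMIs at 2 weeks. Ptn, the growth factor pleiotrophin, also passed, at 1.37 and 20.4 CPM in tumours against 972 and 1034 CPM at 2 weeks and 5 months; it was named after its values were seen. Basal keratin and adhesion genes (13 tested), desmosome genes (7) and stem and neural crest genes (7) had no member that passed. The number of genes that passed was 23 without 2 weeks, 94 without tumour 1 and 216 without tumour 2, where the lone tumour is assumed to vary like the other libraries. Without 2 weeks, Hmga2, Hotairm1, Gng11, Fn1, S100a8, S100a9, Tyrobp, Rspo1, Alox12e and Tmem56 did not pass (adjusted p 0.0718 to 0.255). Without 5 months, Fn1, Hotairm1, Gng11, S100a8 and S100a9 did not (0.0831 to 0.112). Gng11 also did not pass without tumour 1 (0.192), nor Dkkl1 without tumour 1 (0.486) or tumour 2 (0.323). Cdkn2a passed under every alternative run, while Calca and Myh11 passed in those where their counts were high enough to be tested. Neither was tested with at least 2 basal keratin UMIs or no leukocyte gene UMI, nor Calca without 2 weeks, nor Myh11 without 5 months or with an Epcam UMI required.

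**Figure D5:**
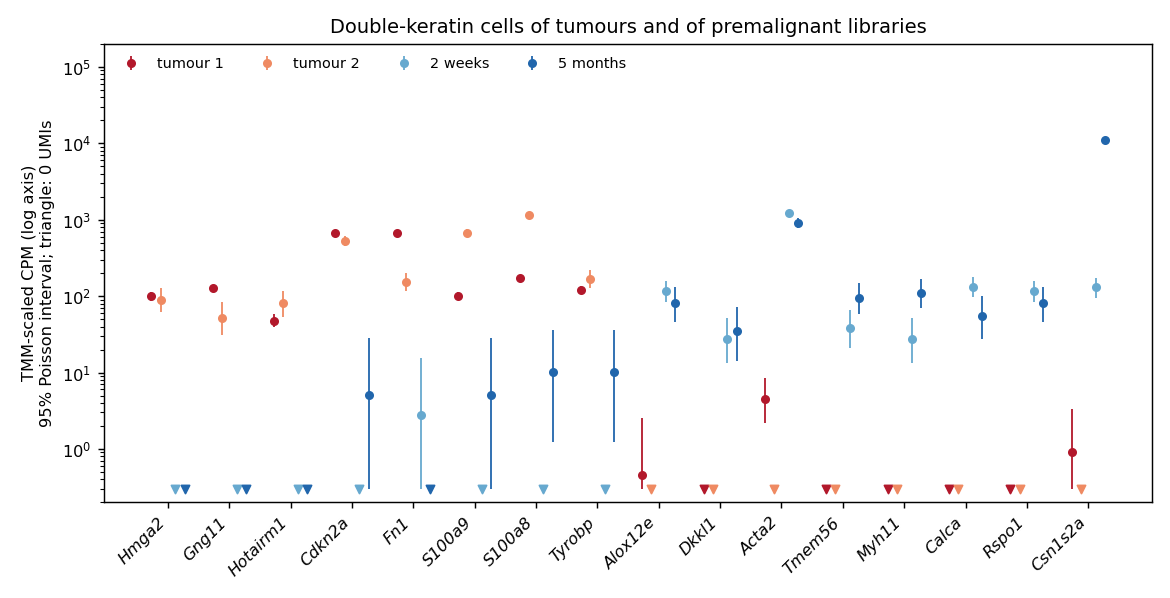
TMM-scaled CPM (log axis) of the 16 named genes in all double-keratin cells of tumour 1, tumour 2, 2 weeks and 5 months, with 95% Poisson intervals that hold counting error only; triangles mark 0 UMIs. The first 8 genes stand higher in both tumours, and the other 8 in both premalignant libraries.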

How the data were processed

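The files hold deposited UMI counts per gene and barcode of 4 droplet libraries (Chromium 3' chemistry, per the labels), made by the authors with Cell Ranger on GRCm38 (mm10), per the submitters' processing notes. The 27998 genes shared by the 4 tables were used; genes listed for the 5 months library alone held 4.59% of its UMIs. UMIs were summed per library and class. Double-keratin and luminal-keratin-only cells were paired 1 to 1 on log10 UMIs (within 0.1). Sums were tested with edgeR 4.0.16 in R 4.3.3 (filterByExpr, TMM, quasi-likelihood F test, Benjamini-Hochberg at 0.05), without the 5 genes of the rule: 8 sums with library as a block, the class by stage term, and 4 sums of double-keratin cells. Both classes share a library, which is the pairing. DESeq2 1.42.0 was an alternative. Within 1 library, log2 ratios of CPM plus 10 are given for genes with at least 20 UMIs, with no p-value. Scrublet (scanpy 1.11.5) marked 4, 0, 0 and 8 doublets at its automatic threshold, too few to be used. No barcode was therefore removed, and an alternative left out the highest scores at 0.8% per 1000 barcodes. On simulated counts, the class test recovered 29.5% of 2-fold and 97.6% of 4-fold changes, the class by stage term 13.3% of 4-fold and 91.3% of 16-fold changes, and the test of tumours 58.5% of 4-fold changes. These counts had the same spread in every test, and equal mean levels in all libraries for the test of tumours. The coefficient of variation fitted to the data was 0.213, 0.174 and 0.396 in the same order of tests. The percentages therefore hold for the simulated spread and are not the power in these data. Members, the 17 gene lists and tests were chosen with earlier results of these data known. Named genes were list members, genes past the test with the same sign in every library, the 5 highest and 5 lowest ratios per library, and the 8 highest and 8 lowest tested changes in tumours.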

Additional observations from a re-analysis of the deposited data

Results flagged for a closer look

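The difference between double-keratin and luminal-keratin-only cells itself differed between tumour and premalignant libraries for Apoe and Sparc, by edgeR's test of the class by stage term. For Apoe the term was -7.54 on the log2 scale (adjusted p = 0.000555), and it passed under every alternative run, with adjusted p at most 0.00116. For Sparc it was -10.9 (adjusted p = 0.00418), a fitted value that is no bound because luminal-keratin-only cells of both premalignant libraries had 0 UMIs. Among cells with an Epcam UMI the Sparc term was -10.0 and its adjusted p 0.0769.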

How the results depend on the processing

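Double-keratin against luminal-keratin-only cells gave 1 gene. The count was 2 with DESeq2 and with the highest doublet scores removed, 124 without the low-count filter and 4 with cells thinned to 2000 UMIs. It was 0 with unmatched cells, with up to 3 matched cells, with at least 2 basal keratin UMIs, with an Epcam UMI required and with no leukocyte gene UMI, and 0 to 13 with 1 library left out. Both classes of a library are paired, and without that replicate block the count was 0. The class by stage term gave 2 genes, against 142 without the filter, 53 unmatched and 5 to 172 with 1 library left out. Tumours against premalignant double-keratin cells gave 38 genes, against 70 with library size scaling, 86 with DESeq2, 296 without the filter, 8 with at least 2 basal keratin UMIs, 21 with an Epcam UMI, 2 with no leukocyte gene UMI, 59 with the highest doublet scores removed and 23 to 216 with 1 library left out. The share of double-keratin cells moved to 1.78% and 4.97% (thinned to 1000 and 4000 UMIs), 4.86% (unthinned) and 1.54% (at least 2 basal keratin UMIs) at 2 weeks. At 5 months it moved to 7.72% (4000 UMIs), 6.68% (unthinned) and 2.15% (at least 2). In tumour 1 it moved to 12.6%, 24.6%, 32.1% and 8.66% under the same 4 settings, and in tumour 2 to 6.61% (unthinned), 1.43% (at least 2) and 0.935% (no leukocyte gene UMI). Of the values of named genes under alternatives, 137 kept their call, 40 lost it and none reversed; named genes under the low-count filter of an alternative have no value there. Fewer genes or cells were tested where the gate removed cells; the cause of the other moves was not tested. The paired double-keratin sums held 334249, 134013, 2273981 and 343185 UMIs at 2 weeks, 5 months, tumour 1 and tumour 2.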

Other observations

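Other gene groups of the double-keratin cells had few members past a test. All 7 tested G2 and M phase genes were below 0 in double-keratin against luminal-keratin-only cells (median log2 difference -0.45, against -0.02 over all genes). Above 0 were 3 of 7 S phase genes and 1934 of all 4069 genes. None passed, nor did any of the 10 interferon response, 12 immediate early or 9 hypoxia and glycolysis genes tested. Between double-keratin cells of tumours and of the premalignant libraries, all 10 tested hypoxia and glycolysis genes were above 0 (median log2 fold change 0.96, against 0.00 over all genes) and 1 of 11 interferon response genes was (median -1.05), with 0 passing in either list (edgeR adjusted p under 0.05). Among all 4285 genes 2143 were above 0.

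At 2 weeks Thbs1, the matrix protein thrombospondin, had 294.5 CPM in double-keratin and 2.89 CPM in luminal-keratin-only cells, with a UMI in 31 and 1 of 56 cells. Fgg, a fibrinogen chain, had 55.05 CPM in double-keratin and 376 CPM in luminal-keratin-only cells, and Plac8 had 116 CPM in double-keratin and 740.2 CPM in luminal-keratin-only cells. At 5 months the chemokine Cxcl14 had 691 CPM in double-keratin cells and 0 UMIs in luminal-keratin-only cells, at least 28.3-fold higher. Hilpda, a lipid droplet protein, had 7.59 CPM in double-keratin and 179 CPM in luminal-keratin-only cells at 5 months, from 1 and 22 UMIs.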
